A study of Mus musculus with 6 samples.

Results

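The miR-10 and miR-196 families are microRNAs encoded inside the Hox gene clusters, and 4 of the 609 mouse probe sets on the arrays measure them: mmu-miR-10a_st, mmu-miR-10b_st, mmu-miR-196a_st and mmu-miR-196b_st. They were taken by name, passenger (star) strands left out, and probe sets of the same names from other mammals were read beside them. Of the 4, miR-10a was detected on every array and the other 3 on none. MicroRNA was measured in the upper left lung lobe of 6 C57BL/6 mice, 1 array each. In 2 CC10-rtTA-IL13 transgenic mice (TG) interleukin 13, the cytokine that drives mucus production and eosinophil recruitment in allergic airway disease, is placed under a doxycycline-responsive transactivator whose CC10 promoter is active in airway club cells. They were compared with 4 wildtype mice (WT). All 6 mice were 6 to 10 weeks old and drank doxycycline at 2 mg/mL for 7 days, so TG and WT share the drug. No group had the transactivator without the interleukin 13 transgene, so both transgenes are compared with WT together. The comparison of TG with WT asks how the Hox-cluster miRNAs of the lung differ under an induced type 2 cytokine.

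A microRNA is a short RNA that guides Argonaute proteins to messenger RNAs, mainly by pairing of its seed, bases 2 to 8, with the target, and so lowers their translation and stability. Hox genes encode transcription factors that set position along the body axis, and the miR-10 and miR-196 genes lie among them and tend to be expressed in the matching body regions. miR-196 directs cleavage of the Hoxb8 messenger RNA in the mouse embryo, and miR-10a restrains NF-kappa-B signalling in cultured human endothelial cells.

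The mature sequences are shown because the members fall into 2 pairs that differ at a single base outside the seed, which bears on what a hybridisation array can tell apart. All 4 members matched an entry of RefSeq for GRCm38.p6. The sequences run 5′ to 3′ with the seed in capitals.
miR-10a: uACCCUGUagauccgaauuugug
miR-10b: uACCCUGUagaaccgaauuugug
miR-196a: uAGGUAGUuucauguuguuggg
miR-196b: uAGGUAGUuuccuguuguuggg

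miR-10a and miR-10b have 23 bases each, share their seed with no other mouse miRNA of the RefSeq table, and differ by 1 substitution, U12A (the miR-10a base, the position counted from the 5′ end, the miR-10b base). miR-196a and miR-196b have 22 bases each, share the other seed between themselves alone, and differ by the substitution A12C. On GRCm38.p6 the mature miR-10a lies on the plus strand at chr11:96317186-96317208, inside the span of Hoxb3 and between Hoxb5 and Hoxb4. miR-10b lies on the plus strand at chr2:74726074-74726096, inside the spans of Hoxd3 and Hoxd4. miR-196a is encoded at 2 loci of the plus strand, chr11:96265187-96265208 between Hoxb13 and Hoxb9, and chr15:102973365-102973386 between Hoxc10 and Hoxc9. miR-196b lies on the minus strand at chr6:52230129-52230150 between Hoxa9 and Hoxa10. Exons and introns of the host genes were not used here. The deposited values carry no coordinates, so these positions come from RefSeq alone.

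The values are log2 signals of the authors' deposited table, with a base inferred from their range. Detection meant a signal over the 95th percentile of the 1631 plant probe sets of the same array, a limit of 4.22 and 4.25 in TG and of 4.27 to 4.33 in WT. Of the mouse probe sets, 197 (32.3%) passed this limit on 2 or more arrays and entered the test. Array medians were 4.02 to 4.03. Across the 197 probe sets the median TG minus WT difference was 0.21 on the log2 scale, with 130 differences above 0 and 67 below. The arrays differed in how many mouse probe sets they detected, 201 and 199 on the TG arrays against 149, 172, 146 and 132 on WT arrays 1 to 4. Lung markers were present, with the endothelial miR-126-3p and the epithelial miR-200c detected on all 6 arrays. miR-124 and miR-9 of brain and miR-216a and miR-217 of pancreas were detected on 0 arrays. The remaining marker of other organs, miR-122, was detected on TG replicate 2 at 4.57 and on WT replicate 2 at 4.35. The arrays do not measure interleukin 13, so the genotype could not be checked against the data.

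miR-10a was lower in both transgenic lungs than in every wildtype lung. Its log2 signal was 4.50 and 4.59 in TG replicates 1 and 2. In WT replicates 1 to 4 it was 6.43, 5.38, 5.88 and 6.40. The groups did not overlap: the lowest WT value, that of replicate 2, lay 0.79 above the higher TG value. The TG arrays lay 0.29 and 0.34 above their detection limits, and the WT arrays 1.11 to 2.13 above theirs, so the transgenic signal was close to the background of the array.

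miR-10a averaged 4.55 ± 0.06 in the 2 TG lungs and 6.02 ± 0.50 in the 4 WT lungs (SD). The difference of -1.48 ± 0.34 (SE), with a 95% interval of -2.25 to -0.70, corresponds to a signal 2.78-fold lower in TG. limma with Benjamini-Hochberg adjustment over the 197 probe sets gave an adjusted p of 0.0604, so the difference did not pass the threshold of 0.05. The exact two-sided permutation test over the 15 possible splits of the arrays gave p = 0.0667, the smallest that so few arrays allow. Of the 197 probe sets, 6 passed the threshold in either direction (3.05%) and 0 passed it as lower in TG (0%), with 5 lower at an unadjusted p under 0.05. Both TG arrays lay below all WT arrays for 13 of the 197 (6.6%), and miR-10a was among them. Its difference was the 2nd lowest of the 197, after that of miR-805, and its p from limma was the smallest among the probe sets lower in TG. In bulk lung RNA, fewer cells that carry a miRNA and less of it per cell cannot be told apart.

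**Figure D1:**
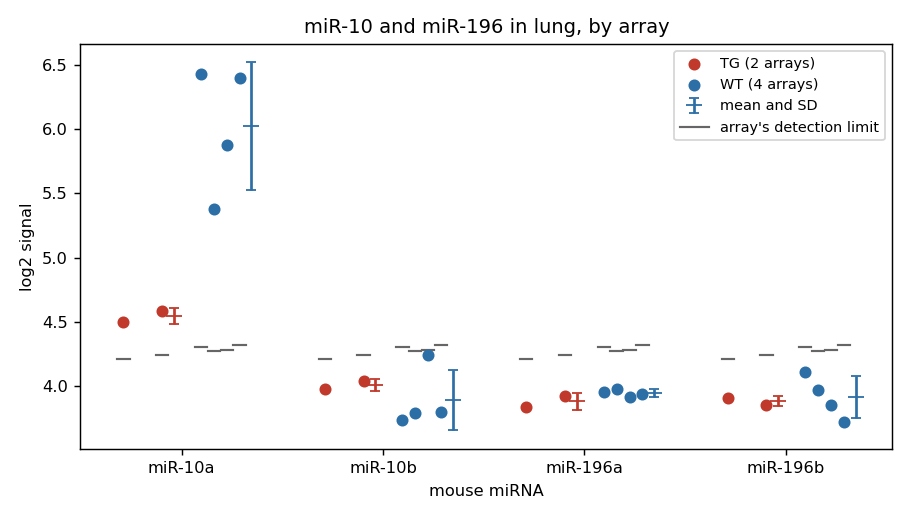
Log2 signal of the 4 mouse miRNAs on each array, TG (red, 2 arrays) left of WT (blue, 4 arrays), with the group mean and SD and the detection limit of each array as a grey dash. miR-10a lies above the limit on all 6 arrays, at 4.50 and 4.59 in TG and 5.38 to 6.43 in WT, and the other 3 miRNAs lie below it on all 6.

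**Figure D2:**
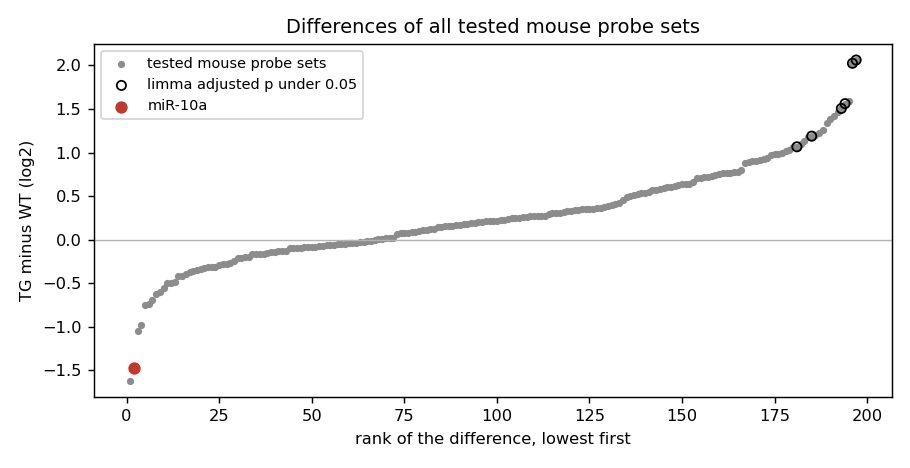
TG minus WT difference on the log2 scale for the 197 tested mouse probe sets, ordered from lowest to highest, with miR-10a in red and the 6 probe sets with an adjusted p under 0.05 circled. miR-10a is 2nd from the low end at -1.48, and all 6 circled probe sets are above 0.

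Other mammals' probe sets named miR-10a had a smaller difference of the same sign. There were 10 of them, of which 9 were detected on all 6 arrays and the orangutan one on none. The probe sequences were not used here, so which of them bind mouse miR-10a is not known, and all read the same 6 RNA samples. For the bonobo probe set, with the lowest difference of the 9, the signal was 5.04 and 4.69 in TG against 5.12, 5.65, 5.97 and 6.86 in WT, and the groups did not overlap. For the tamarin probe set, with the highest, it was 5.45 and 4.95 in TG against 5.42, 4.48, 5.79 and 6.11 in WT, and the groups overlapped. The human probe set read 5.09 and 4.40 in TG against 4.72, 5.28, 5.99 and 6.90 in WT.

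All 9 differences were negative, where 40.4% of the 1065 detected probe sets of other mammals had a negative difference. They ran from -1.04 to -0.25 with a median of -0.64, so the mouse probe set at -1.48 lay outside their range. Both TG arrays lay below all WT arrays in 3 of the 9 (bonobo, opossum and spider monkey), against 9.2% of the 1065, and in the other 6 the groups overlapped. Their average was 4.98 ± 0.21 in the 2 TG lungs and 5.63 ± 0.56 in the 4 WT lungs (SD), a difference of -0.65 with an exact two-sided permutation p of 0.2. For this average the groups did not overlap, at 5.12 and 4.83 in TG against 5.22 to 6.45 in WT. Entered in the limma fit in place of the mouse value, this average had an adjusted p of 0.395.

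The mouse probe set and its namesakes were also compared within each array. Within an array the mouse value minus the average of the 9 was -0.62 and -0.24 in TG, against 1.10, 0.16, 0.35 and -0.05 in WT. This comparison, chosen after the values had been seen, gave a TG minus WT difference of -0.82 and an exact two-sided permutation p of 0.133.

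**Figure D3:**
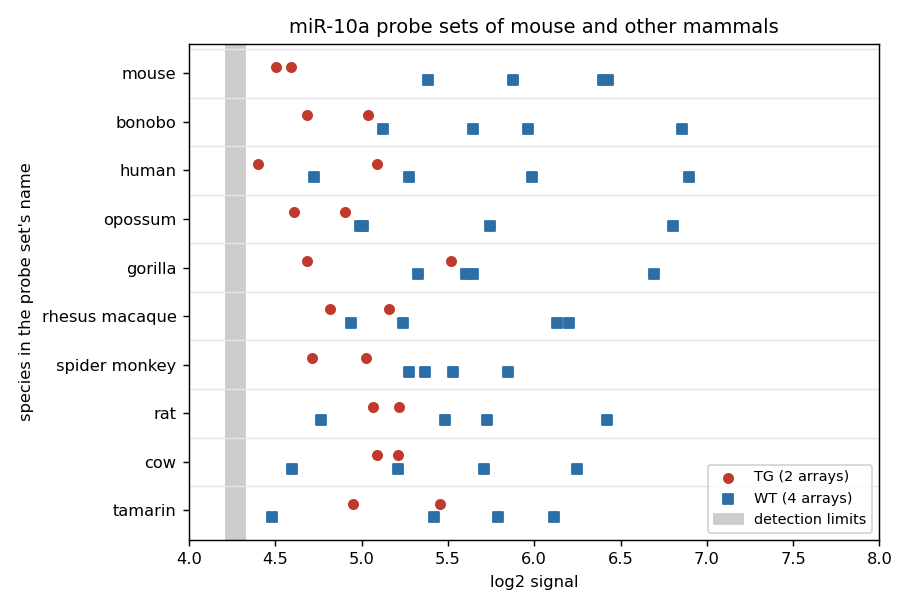
Log2 signal of the miR-10a probe sets detected on all 6 arrays, one row per species in the probe set's name, TG as red circles above WT as blue squares and the range of the detection limits in grey. The rows run from the lowest TG minus WT difference (mouse, -1.48) at the top to the highest (tamarin, -0.25), and the 2 groups overlap in 6 of the 9 rows of other mammals.

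The level of miR-10a was lowest on the arrays with the highest number of detected mouse probe sets. Without the 4 members this number was 200 and 198 on the TG arrays, against 148, 171, 145 and 131 on WT arrays 1 to 4. WT replicate 2 had the lowest miR-10a of the wildtype arrays and detected the most probe sets of them. Among WT replicates 1, 3 and 4, with miR-10a at 6.43, 5.88 and 6.40, it did not fall steadily as the number rose. With this number as a covariate in limma, a fit added after the values had been seen, the difference of miR-10a was -0.21 ± 0.56 (SE) with an adjusted p of 0.958. TG and WT do not overlap in the number, and its part in the result cannot be told apart from genotype.

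The limma difference of miR-10a passed the threshold when WT replicate 2 was left out, at -1.69 with a Benjamini-Hochberg adjusted p of 0.0131. It did not pass without WT replicate 1, 3 or 4, with an adjusted p of 0.133, 0.130 and 0.0618 from limma. In the same test against WT replicates 2 and 3 alone the miR-10a difference was -1.08 ± 0.29 (SE), with an adjusted p of 0.0783. Against WT replicates 1 and 4 alone it was -1.87 ± 0.24, with an adjusted p of 0.0156. Against all 4 WT arrays it was -1.43 without TG replicate 1 and -1.52 without TG replicate 2. Each of these fits leaves 1 TG array, so TG has no spread of its own and no p is given. The highest signal of any probe set was 11.50 and 11.42 on WT replicates 1 and 4. It was 13.23 and 13.13 on WT replicates 2 and 3, and 13.36 and 13.19 on the TG arrays. The part of this unlike signal range in the miR-10a difference was not tested.

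**Figure D4:**
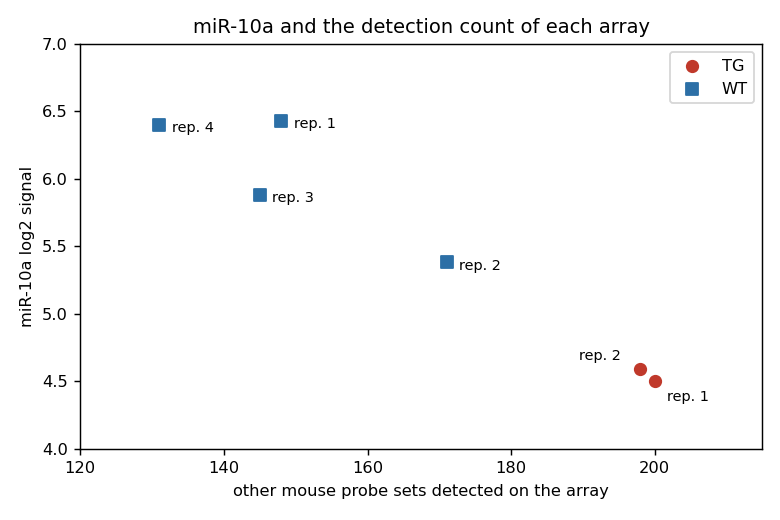
Log2 signal of miR-10a against the number of other mouse probe sets detected on the same array, TG as red circles and WT as blue squares with their replicate numbers. TG lies at 200 and 198 detected probe sets with 4.50 and 4.59, and among WT the array with 171 has the lowest miR-10a, 5.38.

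miR-10b, which shares its seed with miR-10a, was not detected on any array. Its mouse probe set read 3.98 and 4.04 in TG against 3.74, 3.79, 4.24 and 3.80 in WT. All 6 values lay below the limits, the nearest being WT replicate 3, which was 0.04 under its own. It averaged 4.01 ± 0.04 in the 2 TG lungs and 3.89 ± 0.23 in the 4 WT lungs (SD). The measured difference of 0.12 is one between background signals, and no fold is given. Of the 8 probe sets of other mammals named miR-10b, 6 were detected on 0 arrays. The rat one was detected on 1 TG array, at 4.28. The human one was detected on 2 WT arrays, with 3.81 and 3.94 in TG against 4.13, 4.01, 4.34 and 4.34 in WT. Its TG values were background signals and the 2 WT values were at most 0.06 over the limit, so nothing is read from this gap. A dog probe set named miR-10 without a letter averaged 4.33 ± 0.34 in TG and 4.73 ± 0.20 in WT (SD, 2 and 4 arrays), with groups that overlapped.

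miR-196a and miR-196b were below detection in both groups. miR-196a read 3.84 and 3.93 in TG against 3.96, 3.98, 3.92 and 3.94 in WT, with means of 3.88 ± 0.06 in TG and 3.95 ± 0.03 in WT (SD, 2 and 4 arrays). miR-196b read 3.91 and 3.86 in TG against 4.11, 3.97, 3.86 and 3.73 in WT, with means of 3.88 ± 0.04 in TG and 3.92 ± 0.16 in WT (SD, 2 and 4 arrays). The groups overlapped for both, and the values lay 0.19 to 0.60 under the limits of their arrays. The other mammals' probe sets gave the same picture: 4 are named miR-196a, 5 miR-196b and 9 carry another miR-196 name, and 0 of these 18 were detected on any array. At this signal over background no difference between TG and WT was detectable for miR-10b, miR-196a or miR-196b, which does not show that these miRNAs are absent from the lung.

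Other miRNAs of the Hox clusters gave no signal that could be tested. The array carries mouse probe sets for both strands of miR-615, which lies in the Hoxc cluster, and for the passenger strands miR-10a*, miR-10b* and miR-196a*. None of the 5 was detected on 2 arrays. The passenger strand miR-10a*, made from the same hairpin as miR-10a, averaged 3.88 in TG and 4.08 in WT, with all 6 values under the detection limits.

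The miR-99, miR-100 and miR-125 miRNAs are relatives of miR-10 in sequence, with seeds of their own. The sequences of 2 of them are shown for comparison with miR-10a, since of these 5 they need the fewest single-base changes to be turned into it, 3 for miR-100 and 4 for miR-99a.
miR-100: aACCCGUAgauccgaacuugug
miR-99a: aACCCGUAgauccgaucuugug

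All 5 relatives were tested, 0 passed the threshold, 4 had a negative difference and 1 a positive one, and their median was -0.36, beside 0.21 over all tested probe sets. miR-99a read 6.51 and 6.91 in TG against 7.48, 6.70, 7.56 and 7.90 in WT, a difference of -0.70 ± 0.35 (SE). miR-100 read 5.05 and 5.49 in TG against 5.55, 5.15, 5.49 and 6.39 in WT, a difference of -0.38 ± 0.36. The groups overlapped for both. miR-125b-5p was at -0.36 ± 0.24 and miR-125a-5p at -0.14 ± 0.54, while miR-99b was at 0.76 ± 0.31.

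By Pearson correlation over the 6 arrays, the tested mouse probe sets most like miR-10a were miR-30a (r = 0.90), miR-195 (0.90), miR-805 (0.88), miR-99a (0.87) and miR-126-3p (0.84). The arrays span both genotypes, so a shared gap between TG and WT raises these values. In WT, replicate 2 had the lowest value for miR-30a, miR-805, miR-99a and miR-126-3p, as for miR-10a, and replicate 1 for miR-195. The lowest correlation was that of miR-652, at -0.99, which read 8.96 and 8.70 in TG against 7.55, 8.31, 7.89 and 7.33 in WT. None of these 6 passed the threshold. Their differences were -0.74 ± 0.35 (SE) for miR-30a, -0.98 ± 0.23 for miR-195, -1.62 ± 0.68 for miR-805, -1.05 ± 0.44 for miR-126-3p and 1.06 ± 0.31 for miR-652.

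Markers of lung cell types were read beside miR-10a, whose cells of origin the arrays do not show. Of the endothelial markers, miR-126-3p read 9.30 and 9.34 in TG against 10.14, 9.48, 10.69 and 11.19 in WT, without overlap, and miR-126-5p was detected on 0 arrays. The 4 tested of 6 leukocyte markers had a median difference of 0.46 and a summed log2 signal of 23.60 to 23.84 in TG against 21.36 to 23.22 in WT. Among them miR-342-3p was at 1.14 ± 0.29 (SE) and miR-223, under the limit on both TG arrays, at -0.27 ± 0.25, while miR-142-3p and miR-142-5p were detected on 0 arrays. The 8 tested of 8 epithelial markers had a median of 0.22, beside 0.21 over all tested probe sets, and a summed signal of 43.65 to 43.71 in TG against 41.50 to 43.07 in WT. They include miR-205, which was detected on 0 WT arrays and entered the test through TG alone. Among the tested mouse probe sets, 58 of 197 (29.4%) had their 2 TG values higher than each WT value. The 2 smooth muscle markers summed to 18.29 to 18.41 in TG against 17.24 to 19.04 in WT, with miR-143 at -0.50 and miR-145 at 0.58. The 4 mesenchymal markers summed to 24.67 to 25.22 in TG against 23.08 to 25.85 in WT, with miR-199b at -0.62 and miR-199a-5p averaging 5.54 in TG and 4.34 in WT. Both lists thus held differences of opposite sign, which their sums do not show. The 3 tested of 5 ciliated cell markers, of which miR-449a was detected in TG alone, summed to 16.09 to 17.41 in TG against 14.10 to 16.61 in WT. The 2 tested of 3 red blood cell markers summed to 12.38 to 12.65 in TG against 10.90 to 13.49 in WT. Among the 4 markers of striated muscle, miR-133b alone entered the test, through 2 WT arrays, and it lay under the limit on both TG arrays. No marker passed the threshold, and the part of these cell types in the miR-10a difference was not tested.

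**Figure D5:**
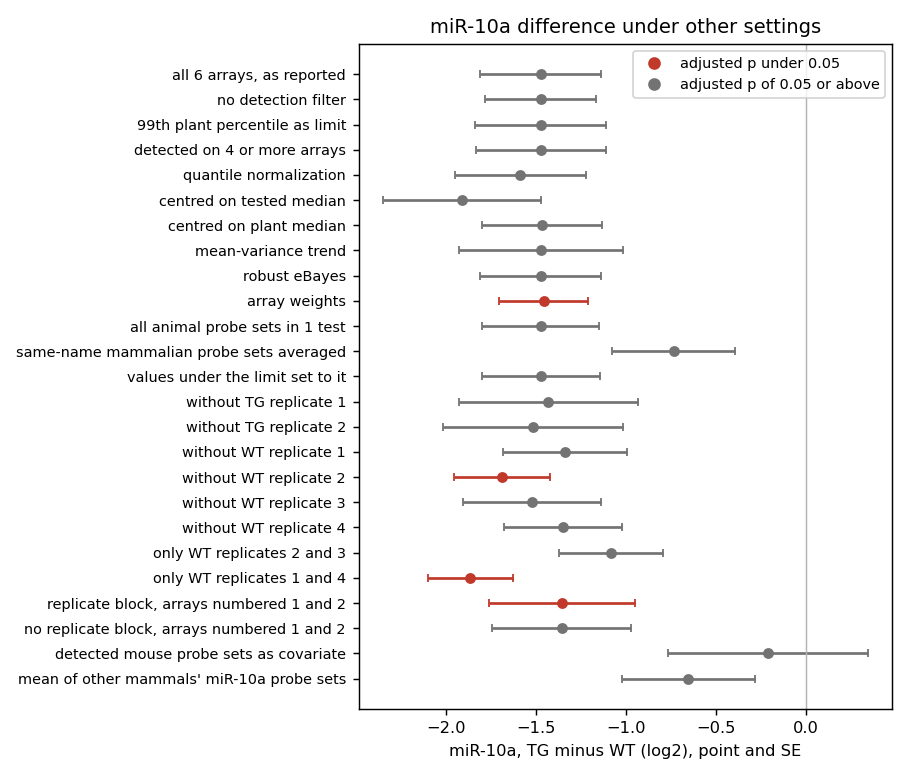
TG minus WT difference of miR-10a on the log2 scale with its SE under each setting of the analysis, red where the adjusted p was under 0.05. All values are below 0, from -1.91 to -0.21, and 4 of the 24 alternatives passed the threshold. In 1 alternative the average of the other mammals' namesakes replaces the mouse value.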

How the data were processed

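Total RNA of each lung lobe was extracted with TRIzol and labelled with biotin, per the labels' protocols. The authors' deposited values, 1 for each array and probe set, were taken as log2 because of their range and dense floor near 4. How the authors corrected, summarized and normalized them, and which miRBase version and batches apply, is not given in the sources used here, and 0 columns were left unused. Without hybridisation files, the number of arrays limits the precision. By their titles the samples are biological replicates.

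The fit was limma 3.58.1 in R 4.3.3 (lmFit, eBayes without trend, not robust, no covariate) on all 197 mouse probe sets detected on 2 or more arrays. Benjamini-Hochberg adjustment was made over these 197. The fit was tested on simulated data with independent noise and no detection difference between arrays, so that test does not cover such a difference. Single values were tested by exact permutation. Sequences, positions and neighbouring genes came from RefSeq for GRCm38.p6. All 4 members, the namesakes in other mammals, the relatives and the marker lists are named. So are the 5 probe sets with the highest and the 1 with the lowest correlation with miR-10a. The probe sets of miR-200c and miR-122 and 2 pairs of organ markers come from the marker lists. The members, lists and tests were chosen with earlier results of these data known. The alternatives were other detection limits and filters, normalizations, eBayes settings, array weights, averaging of namesakes, fewer arrays and a replicate block.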

Additional observations from a re-analysis of the deposited data

Results flagged for a closer look

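For miR-10b, WT replicate 3 at 4.24 stood apart from the other 3 WT arrays, at 3.74 to 3.80, with a gap to its nearest neighbour of 0.874 of the group's range, above Dixon's 95% critical value. The value still lay under the detection limit of its array. Chance sets about 1 group in 20 apart in this way, and 4 were looked at.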

How the results depend on the processing

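The miR-10a difference was negative in all 24 alternatives and passed the threshold in 4. These were array weights (-1.46), only WT replicates 1 and 4 (-1.87), the replicate block on the arrays numbered 1 and 2 (-1.36) and the fit without WT replicate 2. Leaving out 1 array gave -1.69 to -1.34. With 1 WT array left out the adjusted p from limma was 0.0131 to 0.133. With a TG array left out, 1 TG array remained, and no p is given. With the detection number as a covariate it was -0.21, and with namesakes averaged -0.74. In 1 alternative the average of the other mammals' namesakes replaced the mouse value, at -0.65. For part of the 24 the negative sign was fixed in advance. Other filters, detection limits and eBayes settings left the difference itself unchanged. Since the groups did not overlap, leaving out arrays could not reverse its sign. Centring on the tested median put miR-10a at -1.91, and miR-10b at -0.32, miR-196a at -0.50 and miR-196b at -0.47, all 3 of which are background signals. Without 1 array miR-196a was at -0.11 to -0.020. The block raised the 0 calls of those 4 arrays to 12, and nothing in the labels pairs the mice. The deviations of same-numbered arrays from their group means correlated at -0.21 and 0.07. With 2 TG arrays these deviations mirror each other, so the correlations cannot tell whether the mice are paired. The number of called probe sets was 6 of 197. It became 1 of 609 without the detection filter and 2 of 139 with the 99th percentile limit. With detection on 4 or more arrays it was 1 of 144. A test of all animal probe sets, not of mouse alone, called 14 of 1666. Of the same 197, quantile normalization called 0, centring on the tested median 2, array weights 33 and averaging of namesakes 12. The number was 31 of 184 with only WT replicates 1 and 4, and 0 of 197 with the covariate. Without 1 array it was 0 to 27. The cause was not tested. The comparison of miR-10a with miR-10b within arrays was not run, since miR-10b was detected on 0 arrays.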
